A study of Mus musculus with 4 samples.

Results

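Cysteine that reaches the liver can be oxidized towards taurine or built into glutathione. This account follows the 7 genes that carry out or serve these routes: Cdo1, Csad, Slc6a6, Baat, Gclc, Gclm and Gss. They were taken by their symbols from the 32285 mouse genes of the count tables, by a rule that uses the symbols alone. All 7 were found once each and all 7 passed the filter on low values in hepatocytes, which asked for at least 20 CPM (UMIs of the gene scaled to a common library total) in 1 library and at least 100 UMIs (unique molecular identifiers, each standing for 1 captured RNA molecule) in all.

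The study profiled single nuclei (snRNA-seq) from frozen livers of Bl/6 mice on chow diet (CD) or low-protein diet (LPD), with 1 library for each diet labelled control and 1 labelled oncogene. The diet was given for 1 week before hydrodynamic tail vein injection (HTVI) and for 2 weeks after it. Oncogene mice received human c-MET and the active, N-terminally truncated β-catenin by the Sleeping Beauty (SB) transposon, which reaches only a part of the hepatocytes. The study calls the controls vector controls, and its in vivo tumour work used male mice of 6 to 8 weeks unless stated otherwise. The number of mice behind each library was not given in the sources used here.

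The labels and the transgenes disagreed on CD. There were 100 transgene UMIs in the library labelled CD control and 0 in that labelled CD oncogene, which allows at most 0.0564 CPM in its hepatocytes. On LPD the numbers were 0 and 6. The study's text also puts more nuclei in its CD vector group than in its CD oncogene group. Here the order was the reverse. Under the study's limits on genes and mitochondrial share, before doublets were removed, the library labelled CD control kept 10397 nuclei and that labelled CD oncogene 12552. An exchange of the CD labels was not tested further, so each library is named by its label only. Where 4 values follow each other, those on CD come first (labelled control, then oncogene) and those on LPD next in like order. After filtering, 42877 of 44010 nuclei were kept, between 9825 and 12552 in a library, with a median of 3807 and 3294 UMIs on CD and of 1962 and 1762 on LPD. The median mitochondrial share was 2.42% and 0.983% in the CD libraries and at most 0.127% in the LPD libraries, so diet cannot be told apart from depth and mitochondrial share. Pairs of libraries shared 18 to 40 barcodes.

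Cdo1 encodes cysteine dioxygenase, which commits cysteine to cysteine sulfinate. Csad encodes cysteine sulfinate decarboxylase, which makes hypotaurine, the precursor of taurine. Slc6a6 encodes the taurine transporter of the plasma membrane. Baat encodes the acyltransferase that joins bile acids to taurine or glycine. Gclc and Gclm encode the catalytic and the modifier subunit of glutamate-cysteine ligase, the first and limiting step of glutathione synthesis, and Gss encodes glutathione synthetase, the second step. The liver is the main site of both routes, and cysteine dioxygenase is known to follow the supply of sulfur amino acids, mainly through the stability of the protein. Hepatocytes differ along the lobule from the portal vein to the central vein, and Wnt/β-catenin signalling maintains the pericentral programme.

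On GRCm38, Csad lies at chr15:102176999-102204724 (minus strand), Slc6a6 at chr6:91684053-91759066 (plus), Baat at chr4:49489422-49506557 (minus), Gclc at chr9:77754535-77794485 (plus), Gclm at chr3:122245557-122270732 (plus) and Gss at chr2:155563181-155592810 (minus). RefSeq promoters on GRCm38.p6 were at hand for 3 of the 7 genes. The sequences below are the 250 bases before annotated starts of Csad, the gene that differed most between diets and zones, and of Gclm, whose enzyme partner Gclc is described over single nuclei further on. They are written 5′ to 3′ on the gene's strand. Capitals mark a match, on either strand, to TGACNNNGC (the antioxidant response element bound by Nrf2), TGATGNAA (an amino acid response element) or CTTTGA (a TCF/LEF core).
Csad first start, chr15:102205053-102205302, minus strand: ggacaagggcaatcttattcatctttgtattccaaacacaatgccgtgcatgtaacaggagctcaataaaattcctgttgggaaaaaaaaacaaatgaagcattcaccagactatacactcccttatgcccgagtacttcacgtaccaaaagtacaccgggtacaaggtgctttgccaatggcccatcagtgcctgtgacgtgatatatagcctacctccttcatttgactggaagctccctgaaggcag
Csad second start, chr15:102189044-102189293, minus strand: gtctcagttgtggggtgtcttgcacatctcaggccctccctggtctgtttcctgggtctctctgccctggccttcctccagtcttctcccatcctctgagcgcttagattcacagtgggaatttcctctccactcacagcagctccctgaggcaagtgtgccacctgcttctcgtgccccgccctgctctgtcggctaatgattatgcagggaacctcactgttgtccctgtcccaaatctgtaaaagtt
Gclm, chr3:122245307-122245556, plus strand: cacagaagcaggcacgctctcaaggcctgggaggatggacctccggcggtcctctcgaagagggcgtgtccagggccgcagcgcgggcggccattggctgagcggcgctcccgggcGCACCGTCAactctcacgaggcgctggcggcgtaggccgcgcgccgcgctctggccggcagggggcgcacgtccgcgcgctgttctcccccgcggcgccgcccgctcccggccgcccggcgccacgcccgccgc
Neither window of Csad held any of the 3 motifs. The Gclm window held 1 antioxidant response element match, on the opposite strand, 134 bases before the start. The Gss window, not shown, held 1 CTTTGA, 207 bases before its start. Of 32851 promoter windows of this length, 10.2% held TGACNNNGC, 3.45% held TGATGNAA and 13.8% held CTTTGA. A match of letters is a description of the sequence and no measure of binding.

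Hepatocyte-like nuclei were taken from clusters named by marker genes, with the 7 genes left out of the clustering. They numbered 30035, with 7346, 8880, 7364 and 6445 in the 4 libraries. These nuclei held 46037131, 53183370, 19950965 and 18332403 mouse UMIs, and all levels below are UMI sums scaled to CPM of these totals. All 6 hepatocyte markers were present in every library. Markers of other cells were low in these nuclei: the 6 Kupffer cell markers summed to 6.06 to 22.6 CPM and the 8 cholangiocyte markers to 129.8 to 217.4 CPM. With 1 library in each group no difference has a replicate check, and no test was run: the 2 libraries of a diet differ in injection label and are not replicates of 1 group. The 95% intervals given here cover counting error only. A gene was counted as higher or lower when its log2 ratio, with 5 CPM added to both levels, lay past 1.5-fold.

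The taurine branch enzyme Csad was the member that differed most with diet. Its level was 92.9 CPM in the library labelled CD control, 171.6 in that labelled CD oncogene, 349.4 in that labelled LPD control and 459.8 in that labelled LPD oncogene. Both LPD libraries lay above both CD libraries. The log2 ratio of LPD over CD ran from 1.03 (95% interval 0.98 to 1.07), for the library labelled LPD control over that labelled CD oncogene, to 2.31 (2.25 to 2.36), for that labelled LPD oncogene over that labelled CD control. Of the 7 genes, Csad alone lay past 1.5-fold in each of the 4 LPD and CD pairs. Among the 7226 genes tested, 9.02% were higher and 3.2% lower by the same rule, so 1 higher gene of 7 and 0 lower are near the background. The median log2 ratio over all tested genes was itself between 0.13 and 0.24 in the 4 pairs, against 0.11 to 0.36 for the median of the 7 genes.

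Cdo1, the step before Csad, did not follow the diets. Its level was 240 CPM in the library labelled CD control, 571.7 in that labelled CD oncogene, 511.9 in that labelled LPD control and 644.5 in that labelled LPD oncogene. The library labelled CD control was the low one, and the other CD library lay between the LPD libraries. The log2 ratio of LPD over CD was therefore 1.09 and 1.43 against the library labelled CD control, but -0.16 (-0.19 to -0.13) and 0.17 (0.14 to 0.20) against that labelled CD oncogene.

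Slc6a6, the taurine transporter, was at 133.9 and 116.7 CPM in hepatocytes on CD and at 148.8 and 113.4 CPM on LPD. The diets overlapped. Baat was 110.5, 170.3, 198.4 and 125.4 CPM, so the libraries of both diets overlapped here too.

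No glutathione gene lay past 1.5-fold in every diet pair. Gclc was 598.4 and 529.4 CPM on CD, in the libraries labelled control and oncogene, and 771.4 and 646.8 CPM on LPD. Both LPD libraries were above both CD libraries, with log2 ratios between 0.11 (0.08 to 0.14) and 0.54 (0.51 to 0.57), all under 1.5-fold. The lowest ratio was under the median of all tested genes, 0.13 to 0.24. In the pericentral range described below the order did not hold: the library labelled LPD oncogene was at 488.8 CPM, and those on CD at 648.7 and 505.4 CPM. Gclm was 135.7, 110.7, 128.9 and 95.8 CPM. The library labelled LPD oncogene was the lowest, and the diets overlapped. Gss was 74.9, 45.1, 83.4 and 80.8 CPM. The library labelled CD oncogene stood below the other 3, and its log2 ratios from the LPD libraries were 0.89 and 0.84, against 0.16 and 0.11 from the library labelled CD control.

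**Figure D1:**
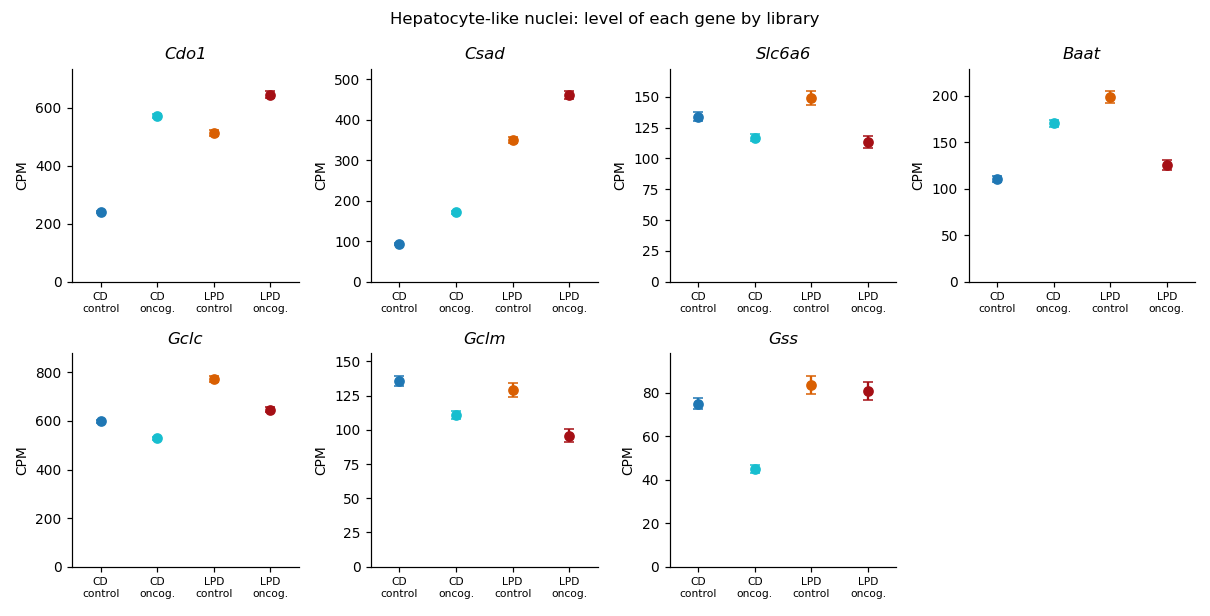
Level of each of the 7 genes in hepatocyte-like nuclei, as CPM of all mouse UMIs, with 1 point for each library and bars for the 95% Poisson interval, which covers counting error only. Csad rises from 92.9 and 171.6 CPM on CD to 349.4 and 459.8 CPM on LPD, while Cdo1 is low only in the library labelled CD control, at 240 CPM.

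Between injection labels on LPD, Baat was the only member past 1.5-fold. It was 125.4 CPM in the library labelled LPD oncogene and 198.4 in that labelled LPD control, a log2 ratio of -0.66 (-0.74 to -0.59). By this rule 4.25% of tested genes were higher and 3.79% lower, and the 7 genes gave 0 and 1. Csad was higher by 0.40 (0.35 to 0.44) and Cdo1 by 0.33 (0.29 to 0.37) in the library labelled LPD oncogene, while Gclm was lower, at -0.43 (-0.52 to -0.34), all under 1.5-fold. Averaged within the 3 lobule ranges described next, with 5 CPM added, the Csad value was 0.04. For Gss the interval, -0.15 to 0.06, included 0.

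Between the CD libraries, 4 of the 7 genes lay past 1.5-fold. With the library labelled CD control over that labelled CD oncogene, Cdo1 had a log2 ratio of -1.25 (-1.28 to -1.22), Csad of -0.89 (-0.94 to -0.83) and Baat of -0.62 (-0.67 to -0.57), and Gss was higher, at 0.73 (0.66 to 0.81). The background here was 7.54% of tested genes higher and 6.42% lower. The 3 lower genes are Cdo1 and Csad of the taurine route and Baat of bile acid conjugation. The library labelled CD control, the one with transgene UMIs, also had more nuclei in the pericentral range, at 52.7% against 23.6%, and a higher mitochondrial share, and the part of these in the differences was not tested beyond the values by zone given next.

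Hepatocyte-like nuclei were placed along the lobule by a score of 10 pericentral and 12 periportal markers, none of them a member, and cut into 3 ranges at common cuts. These are ranges of a score and not cell types: 18.2% of nuclei lay within 0.1 SD of a cut. The study reports Glul, Cyp2e1, Cyp1a2 and Lgr5, all pericentral markers of this score, as high in oncogene-expressing hepatocytes. It reports the periportal markers Pck1, Cyp2f2, Hal and Igfbp2 as low there. In nuclei with the transgenes the score therefore cannot tell lobule position from this change. Csad was pericentral in every library. In the library labelled CD control it was 130.1 CPM in the pericentral and 35.1 in the periportal range, and in that labelled CD oncogene 275.8 and 85.1. On LPD it was 618.5 and 184 CPM in the library labelled control, and 714 and 182.4 in that labelled oncogene. The ratio of the 2 ranges was thus 3.71-fold, 3.24-fold, 3.36-fold and 3.91-fold, alike in the 4 libraries while the level differed between diets. The profile over finer bins differed between libraries, as given below. Of 7582 genes tested, 2.2% were higher and 1.9% lower in the pericentral range past 1.5-fold in all 4 libraries, and of the 7 genes 1 was higher and 0 were lower.

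The diet difference of Csad was present inside each range. The log2 ratio of LPD over CD in the 4 pairs was 1.10 to 2.39 in the periportal, 0.79 to 2.68 in the middle and 1.17 to 2.46 in the pericentral range. In 10 bins with equal numbers of nuclei within each library, Csad rose towards the pericentral end of the score on LPD. It went from 148 to 648 CPM in the library labelled LPD control and from 176 to 779 CPM at its ninth bin in that labelled LPD oncogene. On CD its highest bin was the eighth in both libraries. In that labelled oncogene it was 286 CPM there and 254.9 in the last bin, and in that labelled control 156.3 CPM (145 to 168) and 80.9 CPM (73.6 to 88.8) in the last and most pericentral bin.

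Cdo1 had a slope that depended on the library. It was 331.3 CPM in the pericentral and 112.4 in the periportal range of the library labelled CD control, a 2.95-fold difference. In the other CD library the ratio was 1.24-fold, and on LPD it was 1.49-fold and 1.04-fold. The interval of the last, on the log2 scale, was -0.01 to 0.14. In the periportal range the level was 112.4 CPM in the library labelled CD control and 435 to 629.9 CPM in the other 3.

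**Figure D2:**
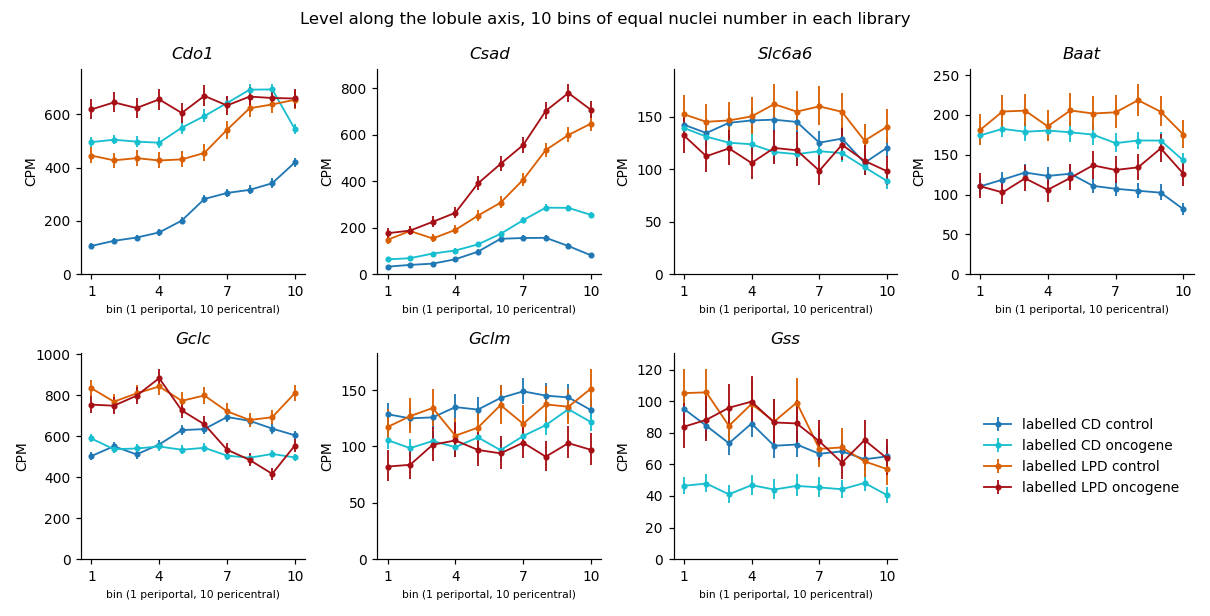
Level of each gene (CPM) in 10 bins of equal nuclei number from the periportal (1) to the pericentral (10) end of the score, for the 4 libraries, with 95% Poisson bars. Csad is lowest in the first bin of every library. It falls from 156.3 to 80.9 CPM over the last 3 bins of the library labelled CD control, which held transgene UMIs. Cdo1 stays between 605 and 669 CPM in the library labelled LPD oncogene.

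The glutathione genes had weaker slopes and Gclc changed its direction. Gclc was 648.7 CPM in the pericentral and 523.4 in the periportal range of the library labelled CD control, a log2 ratio of 0.31 (0.26 to 0.36). It was 488.8 and 755.7 CPM in the library labelled LPD oncogene, a log2 ratio of -0.63 (-0.70 to -0.56). In the other 2 libraries it was -0.13 and -0.12. Gss leaned to the periportal side, with log2 ratios of -0.45 and -0.04 on CD and -0.65 and -0.37 on LPD. The interval included 0 in the library labelled CD oncogene (-0.18 to 0.10). Gclm leaned to the pericentral side by 0.19 to 0.29 and Slc6a6 to the periportal side by -0.41 to -0.14. Baat was between -0.19 and 0.37, with the library labelled LPD oncogene alone on the pericentral side.

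Over the 12 sets formed by 3 ranges in 4 libraries, Cdo1 and Csad had the most alike levels of any pair of members, with a Pearson r of 0.83 on the log2 scale. The 2 subunits Gclc and Gclm had an r of 0.04. Sets of 1 library share its depth and total, so these are descriptions without a test. Among 7581 other genes, those most like Cdo1 were Hnf1aos1 (r = 0.98), Ppara (0.97), which encodes a fatty acid-sensing nuclear receptor, and Zmynd8 (0.96). Those most like Csad were 9130230L23Rik (0.98), Ptk2b (0.97) and Pag1 (0.96). Slc6a6 was most like Mup21, Pla1a and Mup3, with r from 0.92 to 0.94, and Baat most like Slc38a4 (0.96), an amino acid transporter gene, Aldh8a1 and Oaf (both 0.95). The most alike genes were Vegfc, Birc3 and Apc for Gclc (0.89 to 0.91), Mup11, Ankrd13c and Ercc4 for Gclm (0.92 to 0.95) and Fastkd1, Mtif2 and Rwdd4a for Gss (0.96 to 0.99). Major urinary protein genes such as the Mup genes are near copies of each other, so reads may be shared among them.

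Other genes of these routes were read from 7 lists, which overlapped the 7 members in no gene. Of all 7226 genes tested, 9.02% were higher and 3.2% lower on LPD in all 4 diet pairs. The few list genes called between diets are near these shares and are named as a description. Of 7582 genes tested between zones, 2.2% were higher and 1.9% lower in the pericentral range. In the supply of methionine and homocysteine sulfur, 1 of 5 genes (Mat1a) was past 1.5-fold in all 4 diet pairs. Mat1a, which makes S-adenosylmethionine in liver, was 510.8 and 988.6 CPM on CD and 1925 and 2292 CPM on LPD. All 5 genes of this list, Mat1a, Ahcy, Gnmt, Cbs and Cth, were lower in the library labelled CD control than in that labelled CD oncogene past 1.5-fold, with a median log2 ratio of -1.27. Of all tested genes, 6.42% were lower there. In the rest of the taurine branch, 1 of the 4 genes tested was higher on LPD: Slc6a13, a plasma membrane transporter of GABA and taurine, at 106.8 and 108.8 CPM on CD and 373.9 and 310.7 CPM on LPD. Both LPD libraries stood at least 1.47 above both CD libraries on the log2 scale. Another gene of that list, Fmo1, a monooxygenase that can oxidize hypotaurine, was pericentral in all 4 libraries by 0.64 to 1.35.

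Of 4 tested genes of other cysteine catabolism, Ethe1, a mitochondrial persulfide dioxygenase, was lower on LPD, at 10.5 and 12.3 CPM against 26 and 32.4 CPM on CD. The light-chain partner Slc7a11 of the cystine antiporter was below 1 CPM in the hepatocyte sums of all 4 libraries. Its heavy chain Slc3a2 was 1 of 2 tested genes of the uptake list and was higher on LPD, at 22.4 and 33.7 CPM against 7.43 and 7.45 CPM. The levels of the genes tested in this list are no measure of cystine uptake. None of the 9 tested genes of glutathione turnover and none of the 7 tested genes of the Nrf2 pathway passed in all 4 diet pairs in either direction. Of 14 genes of bile acid conjugation and export, Acnat2 was higher on LPD (30.6 and 59.6 CPM against 8.49 and 11.1 CPM); its near copy Acnat1 may share reads with it. Cyp7a1, the rate-limiting enzyme of bile acid synthesis, and Cyp27a1 were pericentral in all 4 libraries, by 2.58 to 4.29 and 1.09 to 2.11. No gene of these lists but Ethe1 was lower on LPD by this rule, and none was periportal in all 4 libraries.

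Between the other pairs of libraries these lists gave the following, with genes named after their values were seen. Of all 7226 genes tested, 4.25% were higher and 3.79% lower in the library labelled LPD oncogene than in that labelled LPD control. In the library labelled CD control, 7.54% were higher and 6.42% lower than in that labelled CD oncogene. In the library labelled LPD oncogene against that labelled LPD control, 2 of 5 methionine genes (Gnmt and Cbs) and 1 of 9 glutathione turnover genes (Lap3) were lower, and no tested gene of the taurine, catabolism and uptake lists was past 1.5-fold. Of 14 bile acid genes 4 were higher and 2 lower there, and of 7 Nrf2 pathway genes 1 (Gstm1) was higher and 2 (Me1 and Osgin1) lower. In the library labelled CD control against the other CD library, Got1 of the taurine list, Slc7a2 of the uptake list and 2 bile acid genes (Abcb11 and Cyp7a1) were lower, while Chac2 of glutathione turnover and 3 Nrf2 pathway genes (Me1, Osgin1 and Gstm1) were higher. No tested gene of other cysteine catabolism was past 1.5-fold there.

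In other cell classes the 22 markers of hepatocyte zones, most of which those cells should lack (cholangiocytes do express Cdh1), stood at 21.3% to 65% of their hepatocyte level. A member at such a share there is read as background. Some members went above it, and the cases named here are examples. Csad ran from 25.5% to 87.2% in mesothelial-like nuclei, where the zone markers reached 47.4%. Cdo1 ran from 45.6% to 83.2% in T or NK-like nuclei, where they reached 60.8%. In vascular endothelial-like nuclei Csad ran from 30.7% to 76.8%, beside at most 42.2% for the zone markers. Gclm ran from 32.1% to 96.9% in mesothelial-like nuclei. Whether these are levels of those cells was not tested. Cdo1 and Csad were below the hepatocyte level in all 9 other classes of all 4 libraries; proliferating nuclei, which mix classes, and the unnamed cluster were not among the 9, and Csad and Cdo1 reached 177% and 172% of the hepatocyte level there. Baat, Gclc, Gclm and Gss were too, except for 1 class of 1 library each: Baat and Gss in cholangiocyte-like nuclei of the library labelled CD control, Gclm in vascular endothelial-like nuclei of that labelled CD oncogene and Gclc in cholangiocyte-like nuclei of that labelled LPD oncogene. For Baat, Gclm and Gss these values were close to it, at 108%, 119% and 122% of the hepatocyte level. The Baat interval, 80.2 to 169.8 CPM, included the hepatocyte level of that library, 110.5 CPM. So did that of Gss, 57.8 to 136.8 CPM, with a hepatocyte level of 74.9 CPM.

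Among the named cell classes, Slc6a6 alone stood above its hepatocyte level in the same class of every library. In Kupffer-like nuclei, the macrophages of the sinusoid, it was 196.7 CPM (95% interval 147 to 258) and 213.9 CPM on CD and 318.8 and 305.1 CPM on LPD. That was 147% to 269% of the hepatocyte level of the same library. It was 141% to 182% in the class of monocyte-, dendritic- and plasmacytoid-like nuclei. In cholangiocyte-like nuclei it was 174.4 CPM (127 to 234), 191.4, 480.1 (384.5 to 592) and 219.9 CPM, the last from nuclei whose class is in doubt, as given below. Sinusoidal endothelial-like nuclei held 35.5% to 49.4% of the hepatocyte level, beside 24.2% to 41% for the zone markers. The shares of nuclei with a Slc6a6 UMI, with nuclei thinned to 1000 UMIs, were 14.4% to 30.3% in Kupffer-like, 10.7% to 13.7% in hepatocyte-like and 2.30% to 6.83% in sinusoidal endothelial-like nuclei. Nuclei under 1000 UMIs were left out of these shares, which took away 49 of 160, 65 of 243, 221 of 330 and 442 of 817 Kupffer-like nuclei and 201 of 556, 244 of 493, 428 of 515 and 613 of 862 sinusoidal endothelial-like nuclei. Without thinning they were 21.9% to 27.5%, 25.1% to 49.5% and 4.06% to 6.29%, with median depths of 844 to 1414, 2326 to 5221 and 740 to 1163 UMIs.

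**Figure D3:**
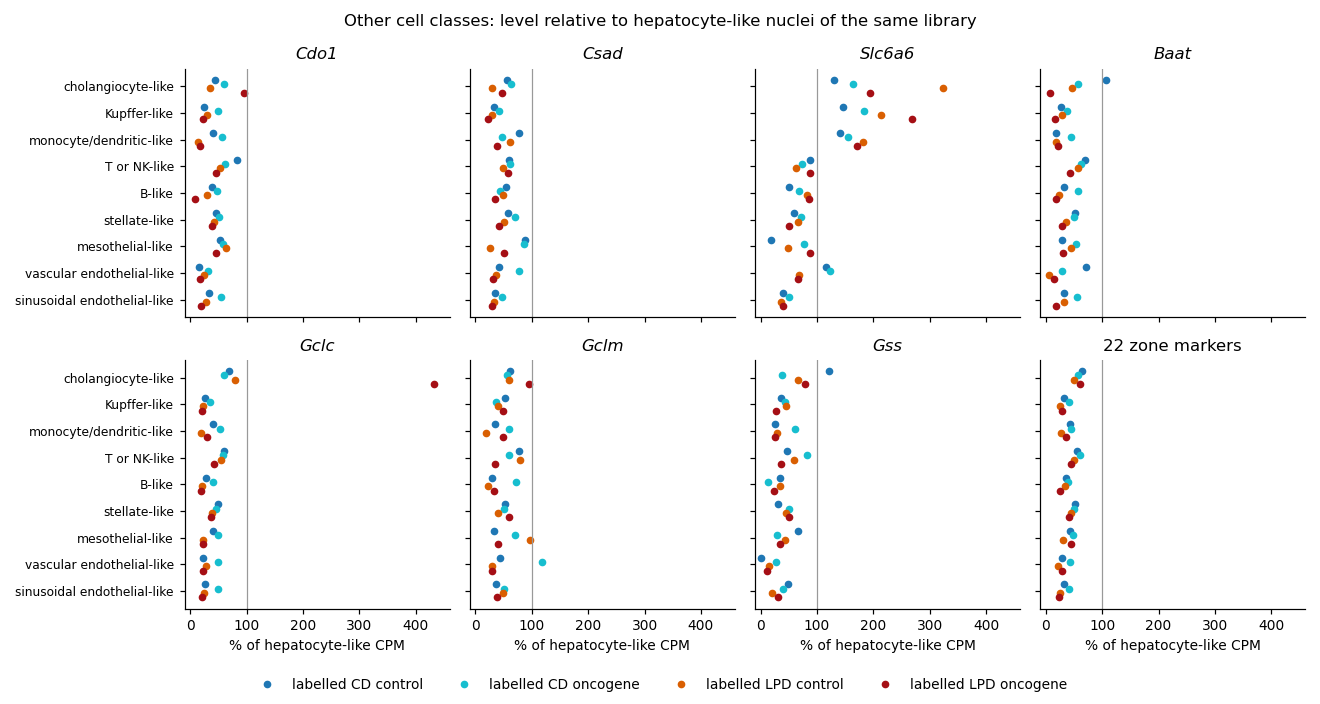
Level of each gene, and of the 22 zone markers, in 9 other cell classes as a percentage of the hepatocyte-like CPM of the same library, with 1 point for each of the 4 libraries and a line at 100%. Slc6a6 lies beyond the line in cholangiocyte-, Kupffer- and monocyte/dendritic-like nuclei of all 4 libraries, and Gclc does so once, at 432% in the cholangiocyte-like nuclei of the library labelled LPD oncogene.

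The high Gclc value rested on nuclei whose class was in doubt. Gclc was 2794 CPM (2490 to 3126) in the 72 cholangiocyte-like nuclei of the library labelled LPD oncogene and 408.3, 317.1 and 607 CPM in those of the other 3 libraries. When nuclei were clustered without correction for library, 46 of the 72 fell in a cluster with 3594 hepatocyte-like nuclei of that library, and 21 fell with the cholangiocyte-like nuclei of the other libraries. The 21 held 149.8 CPM of Gclc (40.8 to 383.5) and all 8 cholangiocyte markers. The 51 nuclei outside held 3651 CPM (3250 to 4088), and Epcam, Krt19 and Krt7 were at 0 there among 82438 UMIs, which allows up to 3 UMIs each, while Pkhd1, Bicc1, Spp1 and Sox9 were present. Their class was not settled by these markers.

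On LPD, Gclc was also the most unevenly spread member among hepatocyte-like nuclei. With nuclei thinned to 1000 UMIs and the 127 to 363 shallower nuclei of a library left out, the variance over the mean of Gclc was 1.22 and 1.21 on CD, 1.47 in that labelled LPD control and 2.18 in that labelled LPD oncogene. The other 6 genes lay between 0.994 and 1.26 in all 4 libraries. On CD the values of Cdo1, at 1.22 and 1.19, were like those of Gclc, on a mean of 0.23 and 0.54 against 0.59 and 0.52 UMIs. At least 5 Gclc UMIs of 1000, a limit chosen after the values were seen, were found in 15 of 7219 and 17 of 8717 nuclei on CD (0.208% and 0.195%). On LPD they were found in 67 of 7001 nuclei (0.957%, exact binomial 95% interval 0.742 to 1.21) labelled control and 74 of 6154 (1.2%, 0.945 to 1.51) labelled oncogene. At least 8 UMIs were found in 1, 0, 4 and 28 nuclei. The 74 nuclei held 11.6% of the Gclc UMIs of their library, and 1 of them had a transgene UMI. Of the 74, 46 lay in the middle, 15 in the periportal and 13 in the pericentral range, and 66 (89.2%) fell in 1 cluster when no correction for library was made, which also held 55% of the other hepatocyte-like nuclei compared. In the library labelled LPD control the like shares were 73.1% and 58%.

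**Figure D4:**
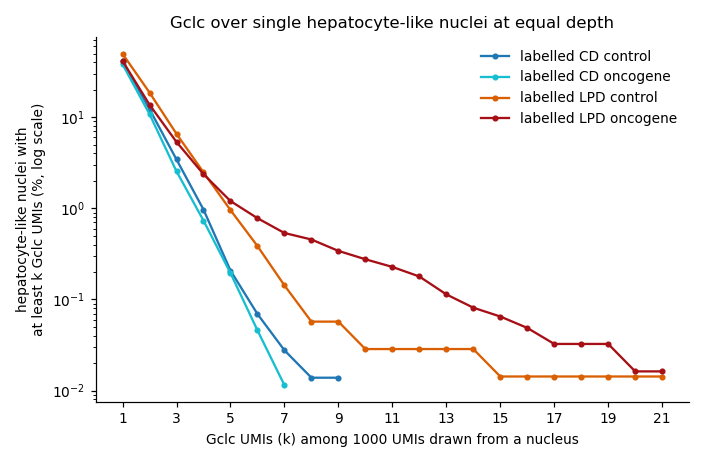
Percentage of hepatocyte-like nuclei (log scale) with at least k Gclc UMIs among 1000 UMIs drawn from each nucleus, for the 4 libraries. The curves of the CD libraries end at 9 and 7 UMIs, and that of the library labelled LPD oncogene lies above the others at 8 UMIs or more, with 28 nuclei against 4 in that labelled LPD control.

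The levels of other genes in these nuclei are a description, since the nuclei were chosen by Gclc after its values were seen. In the library labelled LPD oncogene, Gss was 218.3 CPM in the 74 nuclei and 79.3 CPM in the other hepatocyte-like nuclei, a log2 ratio of 1.46 (0.98 to 1.90). Of the 7 Nrf2 pathway genes with at least 20 CPM and 100 UMIs, 4 had an interval above 0 and none below, and over all 6496 genes tested in this way 11.4% lay above 0. With the genes under those limits included, it was 8 of 13, for which no share over all genes was taken. Srxn1, which repairs peroxiredoxins, was 62.4 against 5.31 CPM, Txnrd1, a thioredoxin reductase, 259.9 against 104.9 CPM, and Nqo1, a quinone reductase, 26 against 2.29 CPM on 5 UMIs. Nfe2l2, Cbr3, Osgin1, Abcc3 and Abcc4 were the others. The values of Srxn1, Cbr3 and Abcc4 rested on 12, 5 and 14 UMIs in the 74 nuclei. Gsr, which regenerates reduced glutathione, was 233.9 against 83.4 CPM, a log2 ratio of 1.49 (1.03 to 1.92). Gclm was 129.9 against 95.4 CPM, with an interval that included 0 (-0.19 to 1.01).

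Csad was lower in the same 74 nuclei, of which 13 lay in the pericentral range, against 34% of the nuclei they are compared with. It was 244.3 against 462.5 CPM, a log2 ratio of -0.92 (-1.37 to -0.51). Within the middle range, with 46 and 2710 nuclei, Csad was 268.1 against 370.3 CPM and the interval included 0 (-1.03 to 0.04), while Gss, Gsr, Srxn1 and Txnrd1 were higher there too, by 1.77, 1.70, 3.94 and 1.52. The intervals of Cdo1 (-0.55 to 0.02), Baat (-1.29 to 0.18) and Slc6a6 (-0.59 to 0.66) over all ranges included 0. Of 14 genes of bile acid conjugation and export, 9 had an interval below 0 and none above, beside 8.68% of all tested genes below. Cyp7a1, 1 of the 9, was 46.8 against 190.5 CPM over all ranges and lower by 2.02 on the log2 scale within the middle range, on 3 UMIs. In the library labelled LPD control, the 67 nuclei had 1 of 7 tested Nrf2 pathway genes (Gstm1) with an interval above 0 and 3 of 14 bile acid genes below, where 3.4% of 6582 genes lay above and 2.99% below. Gsr was 59.8 against 68.6 CPM and Gss 113.6 against 83.1 CPM, with intervals that included 0. Csad and Cdo1 were lower there, at -0.70 (-1.21 to -0.23) and -0.62 (-1.03 to -0.24), and within the middle range, on 19 nuclei, at -0.58 (-1.54 to 0.23) and -0.77 (-1.65 to -0.02). The difference between the libraries was not tested.

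**Figure D5:**
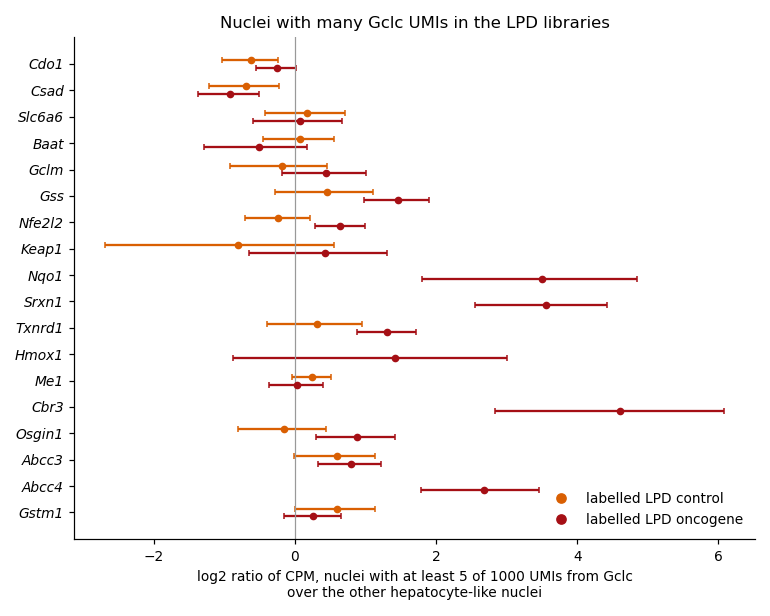
Log2 ratio of CPM between hepatocyte-like nuclei with at least 5 Gclc UMIs of 1000 and the other hepatocyte-like nuclei, for the other 6 genes and the Nrf2 pathway genes with at least 3 UMIs, in the 2 LPD libraries, with 95% intervals for counting error. Gss, Srxn1 and Txnrd1 lie to the right of 0 in the library labelled LPD oncogene, at 1.46, 3.55 and 1.31, and Csad lies to the left in both.

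A transgene UMI was held by 85 hepatocyte-like nuclei of the library labelled CD control, 83 of them in the pericentral range. The score uses markers that the study reports as changed in oncogene-expressing hepatocytes, so this number does not show their place in the lobule. Within that range Cdo1 was 471.8 CPM in these nuclei and 326.5 in the others, a log2 ratio of 0.53 (0.38 to 0.68), while Csad was 63.3 against 132.4 CPM, a ratio of -1.06 (-1.49 to -0.67). The 2 enzymes thus went opposite ways. Position within the range was not matched, and its part in this was not tested. Among all hepatocyte-like nuclei of this library, Cdo1 was 304.8 CPM in the seventh bin of the lobule score and 419.3 in the tenth. Csad was 155.4 and 80.9 CPM in these bins. The nuclei with a transgene UMI were binned with the rest, so these values are no separate measure of position. Baat was -0.42 (-0.81 to -0.05) and Slc6a6 -0.34 (-0.68 to -0.02). For Gclc, Gclm and Gss the intervals included 0, at -0.17 to 0.09, -0.15 to 0.38 and -0.74 to 0.15. The nuclei with a transgene UMI were deeper, with a median of 7389 against 4986 UMIs.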

How the data were processed

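Nuclei of mouse liver were profiled by snRNA-seq, 1 library per group. The authors deposited UMI counts per gene and barcode, not normalized, and the file headers name Cell Ranger 9.0.1. Reads were aligned to mm10 plus the human transgenes. All value columns were mapped to a sample. Whether intronic reads were counted is not given in the sources used here. The study used Seurat 5 per the submitters' processing notes.

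Nuclei with 200 to 7000 genes and at most 21% mitochondrial UMIs were kept. After log normalization, 5000 variable genes (without the 7 genes and the transgenes) gave 50 components, Harmony was run in numpy 2.4.6, and 23 components, 20 neighbours and Louvain clustering (igraph 0.11.9) at resolution 0.4 gave the clusters. Classes needed at least 3 markers and 50% of a list raised 3-fold with a median fold of 2; hepatocyte clusters needed 50% of a hepatocyte list raised 1.5-fold. Clusters of another class with at least 60% of the hepatocyte zone marker level were removed as doublets, 1212 nuclei in all, and a low-depth cluster of 2170 nuclei led by hemoglobin genes stayed unnamed. These limits were set once counts were seen, and class names may differ from the study's. Scrublet (scanpy 1.11.5) marked at most 1 nucleus in a library by its automatic limit and did not work, so removal of the 8% highest scores served as an alternative.

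UMIs were summed per library and class and scaled to CPM of all mouse UMIs. Intervals are exact Poisson, conditional binomial or Clopper-Pearson 95% intervals for counting error, and the limit of a count of 0 was set at 3 counts. Members past the fold between diets had to be so in all 4 LPD and CD pairs. The call rules were checked on data with known answers. Genes to be named from the lists were those with at least 20 CPM and a call between diets or zones; other list genes in the text, such as Slc7a11, Acnat1, Gsr and Srxn1, were named after their values were seen. Alternatives were TMM factors (edgeR 4.0.16), a total without mitochondrial genes, a stricter filter, the mean over nuclei, a pseudocount of 1 CPM, a fold of 2, within-zone means, thinning to 1000 UMIs, other zone scores and clustering without correction. The genes, lists and rules were chosen with earlier results of these data known. Gene coordinates and sequences are on GRCm38, and 32235 of 32285 mouse gene IDs were found in GENCODE M21.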

Additional observations from a re-analysis of the deposited data

Results flagged for a closer look

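Baat went opposite ways with the injection label on the 2 diets. The log2 ratio of the library labelled oncogene over that labelled control, with 5 CPM added, was 0.60 on CD and -0.64 on LPD, both past 1.5-fold. The difference was not tested, since each group is 1 library. The transgene UMIs go against the labels on CD: with the library that holds them set first, the CD ratio reads -0.60.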

How the results depend on the processing

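No paired analysis was possible because each group holds 1 library. Of the 273 single-gene values under alternatives, 264 kept their call, 9 did not and 0 reversed. Csad kept its call between diets and between zones under all 11 and all 8 alternatives, with mean log2 ratios of 1.502 to 1.70 and 1.64 to 1.82. TMM factors gave the lowest diet ratios of all 7 genes, and put Slc6a6 at -0.07 in place of 0.05. At a fold of 2, members past the fold fell from 1 to 0 between the LPD libraries and from 4 to 1 (Cdo1) between the CD libraries. Baat between the CD libraries, at -0.60, lost its call under 5 of 10 alternatives, where its ratio was -0.54 to -0.60 and the change at a fold of 2 is by construction. Gss there lost its call with TMM factors, at 0.50, and at a fold of 2. With at least 500 genes and at most 5% mitochondrial UMIs, 4 members (Cdo1, Csad, Baat and Gclm) were highest in hepatocytes in place of 2; the cause was not tested. The alternatives with the unnamed low-depth cluster and without the mitochondria-rich hepatocyte cluster, the limits on Gclc UMIs and the middle-range values of the Gclc-rich nuclei were added after the data were seen. Low depth on LPD widens the intervals there, and 1 library per group leaves mouse-to-mouse spread unknown.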
